A study of Drosophila melanogaster with 9 samples.

Results

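Alpha-Catr, a gene named for its sequence relation to alpha-catenin, was examined with 7 catenin, vinculin and cadherin genes of Drosophila melanogaster: alpha-Cat, arm, p120ctn, shg, CadN, Vinc and Cad99C. These 8 genes were found by their FlyBase identifiers in a count table of 17611 genes, and all 8 received an adjusted p in every comparison. They were selected on their known roles and on their levels and fold changes in these same libraries, so those values, and any call among them, describe these libraries and support nothing further. RNA was sequenced from 9 libraries in 3 groups of 3, with total counts of 18681293 to 31519287 per library. By the labels and the study's methods, the groups were yw, the wild-type strain (y1 w1118), a temperature-sensitive L(3)mbt mutant (ts1) and a Lint-O mutant (KO) made with CRISPR-Cas9. Larvae are said to have been taken at the last larval stage and reared at 29 °C for 5 to 6 days after eggs were laid at 25 °C. The Lint-O allele was kept in the y1 w1118 background and the L(3)mbt allele in a w stock, so allele and background cannot be told apart in the latter. L(3)mbt is a chromatin-binding protein, and Lint-O is the partner the study isolated. The comparisons show which RNAs differ between the groups, and direct and indirect effects of each protein cannot be told apart.

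Cadherins are transmembrane proteins that bind cadherins of the neighbouring cell. Inside the cell, the classical cadherins bind beta-catenin, which binds alpha-catenin, which links the junction to actin filaments. Vinculin joins alpha-catenin when the junction is under tension, and p120-catenin binds the cadherin tail close to the membrane. In flies the E-cadherin complex holds epithelia together and anchors stem cells to their niche, and N-cadherin serves mainly in the nervous system and mesoderm.

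The libraries are labelled larval brain, and the listed markers of brain were split between genes near 0 and genes clearly present. Of 7 neuroblast markers, dpn, ase, grh and klu were under 1 CPM (counts scaled to a fixed library total) in every library, wor and mira had 2.38 to 11.6 CPM and insc 22.4 to 33.2. Of 7 neuronal markers, nSyb, brp, Syt1 and fne were under 1 CPM, and elav, Syx1A and cac had 41.7 to 161. Of 5 glial markers, repo and gcm were under 1 CPM, and moody, loco and nrv2 had 56.7 to 173. All 4 listed markers of ovarian somatic cells (tj, fs(1)Yb, Fas3 and the flam transcript) were above 10 CPM in every library, with a summed level of 571 to 809 CPM in yw, 629 to 722 in L(3)mbt mutants and 727 to 793 in Lint-O mutants. In the sample descriptions, the columns carry the names EGFP for yw, L3 for L(3)mbt mutants and LintO for Lint-O mutants. The study also sequenced RNA from cultured ovarian somatic cells after knockdown of L(3)mbt or of Lint-O, with a GFP siRNA as control. Whether the columns come from larvae or from such cells was not tested, so the groups are called by their labels, and neither the tissue nor the genotypes and rearing are taken as known. The mutated genes were lower in their own groups. Mean normalized counts (counts divided by a library size factor, n = 3) of l(3)mbt were 3204 in yw, 1795 in L(3)mbt mutants and 4222 in Lint-O mutants. Those of Lint-O were 506 in yw, 576 in L(3)mbt mutants and 84.1 in Lint-O mutants. Whether a mutant allele or a knockdown lowered these genes was not tested. In bulk RNA, fewer cells of a type and less RNA per cell cannot be told apart.

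Alpha-Catr was almost silent in yw, low in Lint-O mutants and clearly present in L(3)mbt mutants. Its role in flies is not described in the sources used here. The gene (FBgn0029105) lies on chromosome 2R from 23957842 to 23961631, plus strand, in dm6 coordinates, with 6 exon blocks and 3007 bases of exon, of which 5.15% lie opposite exons of another gene. The yw libraries held 2, 5 and 3 reads, the Lint-O libraries 83, 55 and 40, and the L(3)mbt libraries 697, 611 and 699. In normalized counts these were 2.16, 5.82 and 2.28 in yw, 80.9, 57.8 and 49.3 in Lint-O mutants, and 635, 640 and 574 in L(3)mbt mutants. The 3 groups did not overlap, and the Lint-O libraries lay between the others.

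The means of alpha-Catr were 3.42 ± 2.08 normalized counts in yw, 62.7 ± 16.4 in Lint-O mutants and 616 ± 36.4 in L(3)mbt mutants (SD, n = 3 each). Against yw, its log2 fold change was 7.57 (SE 0.48) in L(3)mbt mutants and 4.29 (SE 0.49) in Lint-O mutants. The L(3)mbt level stood 3.28 (SE 0.17) above the Lint-O level on the log2 scale. Since the yw group rests on 10 reads in all, the precision is set by them. From 2007 against 10 reads, the ratio of normalized totals was 190, with an exact 95% counting interval of 103 to 397. From 178 against 10 reads it was 19.8 (10.5 to 42.0), and between the mutants it was 9.61 (8.24 to 11.3). These intervals cover counting error only, not the spread between replicates. The study describes its brain RNA-seq samples as biological triplicates, and the labels do not say whether the replicates came from separate animals. Without yw replicate 2, which held 5 of the 10 reads, the log2 fold changes were 8.11 and 4.83.

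Set against all genes tested, the fold of alpha-Catr ranked 16th from the highest of 10687 in L(3)mbt mutants, 87th of 10422 in Lint-O mutants and 6th of 9097 between the mutants. In the table, 7914 genes had at most 5 reads in each yw library. Of these, 209 were called higher in L(3)mbt mutants, 121 in both mutants, and 31 of those also higher in the L(3)mbt than in Lint-O mutants, where called means an adjusted p under 0.01 (DESeq2 with Benjamini-Hochberg adjustment). Over all genes tested, 18.1% were called higher in L(3)mbt mutants, 13.4% in Lint-O mutants and 9.22% in the L(3)mbt than in Lint-O mutants. The 7914 include genes, such as dpn, with too few reads to be tested, so these shares of tested genes have another base than the counts. No share over all genes was computed for the joint calls. Among the 121, alpha-Catr ranked 3rd by its mean in L(3)mbt mutants and 3rd among the 31 by the difference between the mutants. These sets were defined by calls on the same values, so the ranks only describe alpha-Catr within them. The summed level of 9 germline and testis genes moved in the same order: 7.77 to 9.27 CPM in yw, 166 to 175 in Lint-O mutants and 322 to 389 in L(3)mbt mutants. Most of that sum was vas, with 1.87 to 2.98, 138 to 143 and 262 to 313 CPM. Nanos, bam, zpg and tej were also called higher in both mutants. Mean osk was 0.681, 0.353 and 0.248 CPM in that order and was not called, and can, aly and Mst87F were under 1 CPM in every library. Their part in the alpha-Catr values was not tested.

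**Figure D1:**
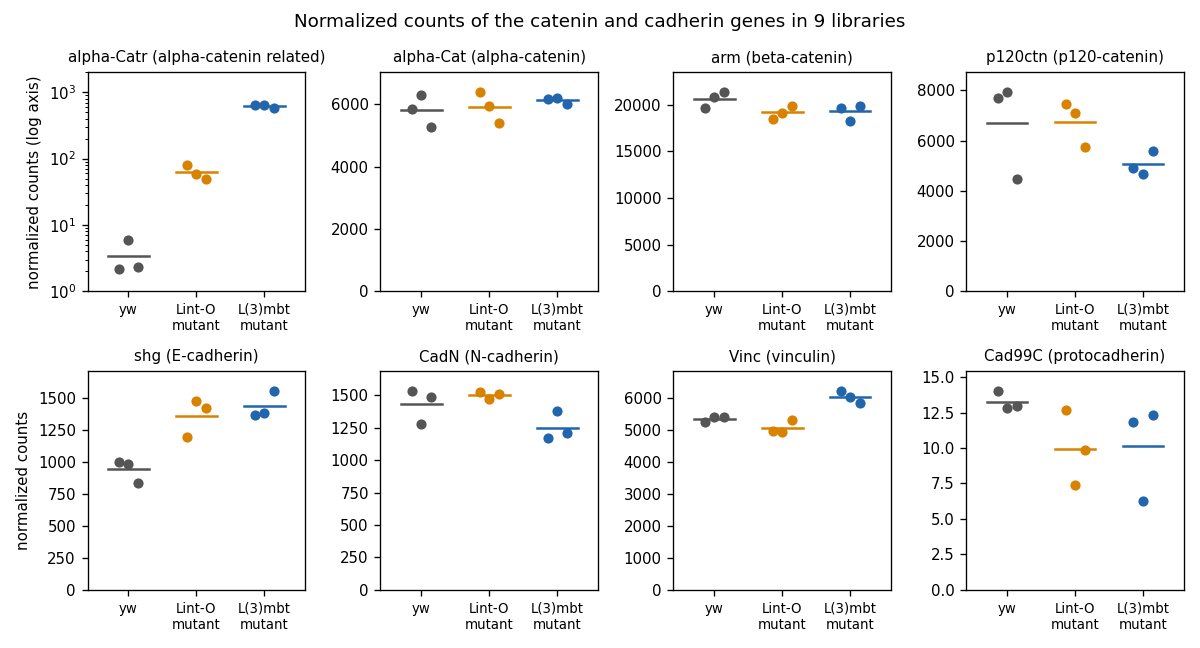
Normalized counts of the 8 genes in each of the 9 libraries, by group; points are libraries, lines are group means, and the axis is logarithmic for alpha-Catr only and linear from 0 for the others. Alpha-Catr separates into 3 levels, with means of 3.42, 62.7 and 616, while alpha-Cat and arm overlap across all groups.

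Alpha-Cat, the alpha-catenin that links the junction to actin, stayed within the spread of its libraries. The gene (FBgn0010215) lies on chromosome 3L from 23318646 to 23338100, minus strand. Its normalized counts were 5860, 6301 and 5291 in yw, 6180, 6217 and 6012 in L(3)mbt mutants, and 6391, 5958 and 5397 in Lint-O mutants, with all groups overlapping. The log2 fold changes were 0.08 (SE 0.07) and 0.03 (SE 0.07). Levels of different genes were compared per exon length as TPM (counts per exon length, scaled to a fixed library total). On that scale, alpha-Catr was 0.0427% to 0.107% of alpha-Cat in yw, 1.06% to 1.47% in Lint-O mutants and 11.1% to 11.9% in L(3)mbt mutants. Alpha-Catr thus remained the lesser of the pair in all 9 libraries. Their summed level ran from 104 to 129 TPM in yw, from 114 to 135 in Lint-O mutants and from 138 to 150 in L(3)mbt mutants.

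Armadillo (arm), the fly beta-catenin, which also carries the Wingless signal to the nucleus, was the most abundant of the 8 genes per length. It lies on chromosome X from 1891401 to 1900646, minus strand (FBgn0000117), and 2.30% of its exon length lies opposite another gene. Normalized counts were 19664, 20865 and 21321 in yw, 19651, 18249 and 19889 in L(3)mbt mutants, and 18464, 19153 and 19879 in Lint-O mutants. The log2 fold changes were -0.10 (SE 0.05) and -0.11 (SE 0.06), and the lowest yw library lay inside the range of both mutants. The difference between the mutants was 0.01 (SE 0.06).

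P120ctn, which binds the cadherin tail near the membrane, varied widely within yw, and 1 yw library set its comparison. The gene (FBgn0260799) lies on chromosome 2R from 4595288 to 4609492, plus strand. Normalized counts were 7718, 7927 and 4452 in yw, 4918, 4687 and 5585 in L(3)mbt mutants, and 7453, 7084 and 5739 in Lint-O mutants. Yw replicate 3 was below every library of both mutants, while the other yw libraries were above all of them. The log2 fold change was -0.40 (SE 0.23) in L(3)mbt mutants and 0.01 (SE 0.23) in Lint-O mutants. Without yw replicate 3, the L(3)mbt value was -0.63 (SE 0.09) and passed the threshold that it had missed with all 9 libraries. Between the mutants, whose libraries did not overlap, the difference was -0.42 (SE 0.23) with all libraries and -0.42 (SE 0.08) without yw replicate 3, when it also passed.

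Yw replicate 3 was also low at the nearest protein-coding genes of p120ctn. Stlk, a STRAD-like pseudokinase gene, had 1489, 1542 and 445 normalized counts in yw. CG17883 had 3352, 3914 and 1985, and CG17486 had 1981, 2222 and 1354. RpL38, a ribosomal protein gene, had 23149, 19793 and 15505. In all 4 neighbours yw replicate 3 was the lowest of the yw libraries. Low values of that library were not particular to this region: tj had 14016, 14706 and 9665, and flam 776, 693 and 329. None of the 4 was called in either mutant with all libraries by DESeq2 or edgeR, with 0 at an unadjusted p under 0.05. Without yw replicate 3 Stlk was called lower in L(3)mbt mutants (-1.26).

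Shotgun (shg), the fly E-cadherin, was higher in every library of both mutants than in any yw library. It lies on chromosome 2R from 21049654 to 21057197, minus strand (FBgn0003391). Normalized counts were 999, 983 and 836 in yw, 1368, 1377 and 1551 in L(3)mbt mutants, and 1191, 1471 and 1416 in Lint-O mutants. The fold change was 1.53 in L(3)mbt mutants (log2 0.61, SE 0.10) and 1.45 in Lint-O mutants (log2 0.53, SE 0.10). The mutants overlapped each other, with a log2 difference of 0.08 (SE 0.09). Over all alternatives the log2 value stayed between 0.53 and 0.67 in L(3)mbt mutants and between 0.46 and 0.62 in Lint-O mutants.

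N-cadherin (CadN), the classical cadherin best known from neurons, was measured in all groups and was slightly lower in L(3)mbt than in Lint-O mutants. It lies on chromosome 2L from 17647053 to 17778340, minus strand (FBgn0015609). Normalized counts were 1533, 1277 and 1486 in yw, 1168, 1378 and 1210 in L(3)mbt mutants, and 1525, 1474 and 1508 in Lint-O mutants. Both mutants overlapped yw, and the log2 fold changes were -0.20 (SE 0.08) and 0.07 (SE 0.08). All L(3)mbt libraries were below all Lint-O libraries, by -0.26 (SE 0.08) on the log2 scale. That difference missed the threshold, but passed it in 5 of 16 alternatives, among them -0.27 without yw replicate 2, -0.27 without yw replicate 3 and -0.34 without L(3)mbt replicate 2. Against yw, the L(3)mbt value passed without yw replicate 2 (-0.27) and without L(3)mbt replicate 2 (-0.27).

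The balance of both classical cadherins, as the ratio of shg to CadN TPM, was 1.27 to 1.73 in yw, 2.25 to 2.88 in L(3)mbt mutants and 1.76 to 2.24 in Lint-O mutants. Every mutant library lay above every yw library, and the L(3)mbt libraries lay above the Lint-O libraries by a narrow margin. The ratio of arm to shg TPM fell in a separate range in the mutants: 35.3 to 45.8 in yw, 23.0 to 25.8 in L(3)mbt mutants and 23.4 to 27.8 in Lint-O mutants. The 2 mutants overlapped in that ratio. Both ratios contain shg, whose change was known when the genes were chosen.

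Vinculin (Vinc), which binds alpha-catenin and talin at junctions under load, was slightly higher in L(3)mbt mutants. It lies on chromosome X from 2214347 to 2222567, minus strand (FBgn0004397). Normalized counts were 5241, 5385 and 5412 in yw, 6209, 6029 and 5851 in L(3)mbt mutants, and 4950, 4918 and 5318 in Lint-O mutants. The L(3)mbt libraries lay above all 6 others, while the Lint-O and yw libraries overlapped. The fold change in L(3)mbt mutants was 1.13 (log2 0.17, SE 0.05), and the Lint-O log2 value was -0.08 (SE 0.05). The mutants differed by 0.25 (SE 0.05), with 0.23 to 0.29 over 16 alternatives. The difference from yw was not called in 6 of 16: with TMM factors (0.14), with edgeR (0.15), and without yw replicate 1 (0.16), yw replicate 2 (0.17), L(3)mbt replicate 1 (0.15) or L(3)mbt replicate 2 (0.18).

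Cad99C, a protocadherin of microvilli in the follicular epithelium of the fly ovary, was near the limit of detection. It lies on chromosome 3R from 29841657 to 29854699, plus strand (FBgn0039709). Its libraries held 13, 11 and 17 reads in yw, 13, 6 and 15 in L(3)mbt mutants, and 13, 7 and 8 in Lint-O mutants. The means were 13.3 ± 0.662, 10.1 ± 3.36 and 9.96 ± 2.66 normalized counts. All yw libraries were above all mutant libraries by a small margin, but the counting interval of the ratio was 0.484 to 1.27 in L(3)mbt mutants and 0.452 to 1.26 in Lint-O mutants. A difference was not detectable at this depth.

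**Figure D2:**
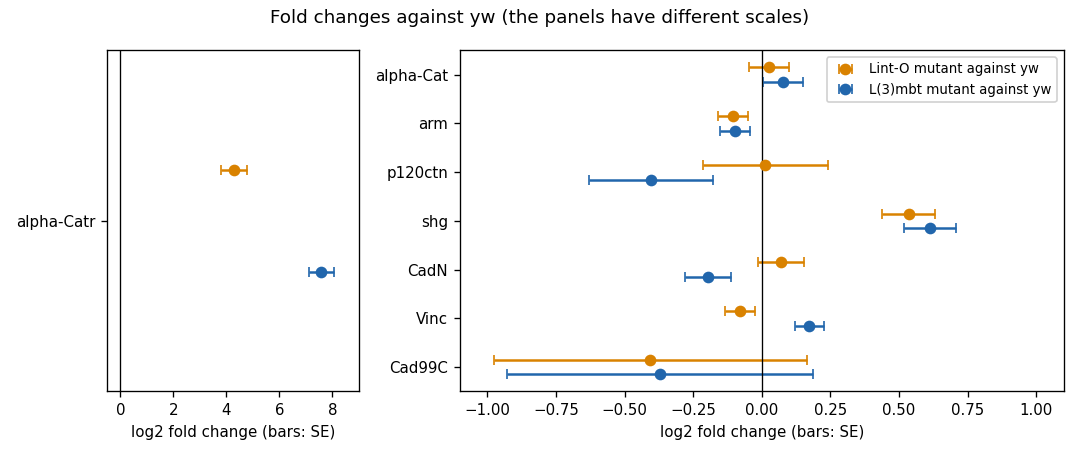
Log2 fold change of each gene against yw in Lint-O mutants (orange) and L(3)mbt mutants (blue), with SE bars from the fit over 9 libraries; alpha-Catr has its own panel and scale. Alpha-Catr lies at 4.29 and 7.57, shg at 0.53 and 0.61, and the other 6 genes within 0.41 of 0.

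Counted together, 3 of the 8 genes (alpha-Catr, shg and Vinc) were called higher in L(3)mbt mutants, where 30.7% of all genes tested were called, 18.1% as higher and 12.6% as lower. Alpha-Catr and shg were called higher in Lint-O mutants, where 20.9% of all genes were called, 13.4% as higher and 7.52% as lower. Between the mutants, alpha-Catr and Vinc were called, beside 14.9% of all genes, 9.22% as higher and 5.71% as lower. The groups did not overlap for 4 of the 8 genes in L(3)mbt mutants (50.9% of all genes tested), for 3 in Lint-O mutants (43.1%) and for 4 between the mutants (41.2%). The median log2 fold change of the 8 genes was -0.01, 0.02 and 0.04 in these comparisons, and that of all genes tested was -0.01, 0.01 and 0.01. Because the genes were chosen with these values known, no more is read from the counts. Both mutants were compared with the same yw libraries.

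By level per length, arm led in every group, with 405 ± 14.8 TPM in yw. P120ctn (176 ± 54.0) and alpha-Cat (117 ± 12.6) followed and overlapped in yw, and Vinc came next with 95.3 ± 2.12. Shg had 10.3 ± 1.19 TPM and CadN 6.97 ± 0.595, which did not overlap. Cad99C (0.160 ± 0.00915) and alpha-Catr (0.0802 ± 0.0502) were the lowest. Alpha-Cat, arm, p120ctn and Vinc stood above both classical cadherins in every library.

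The order of the other genes was kept in the mutants, and the main shift was that of alpha-Catr. It was 8th of 8 in yw, 7th in Lint-O mutants with 1.53 ± 0.384 TPM, and 6th in L(3)mbt mutants with 15.1 ± 1.20 TPM. There it overlapped shg (16.5 ± 0.857) and lay above CadN (6.42 ± 0.673). With coding length in place of exon length, alpha-Catr had 10.1 TPM in L(3)mbt mutants and 1.01 in Lint-O mutants.

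**Figure D3:**
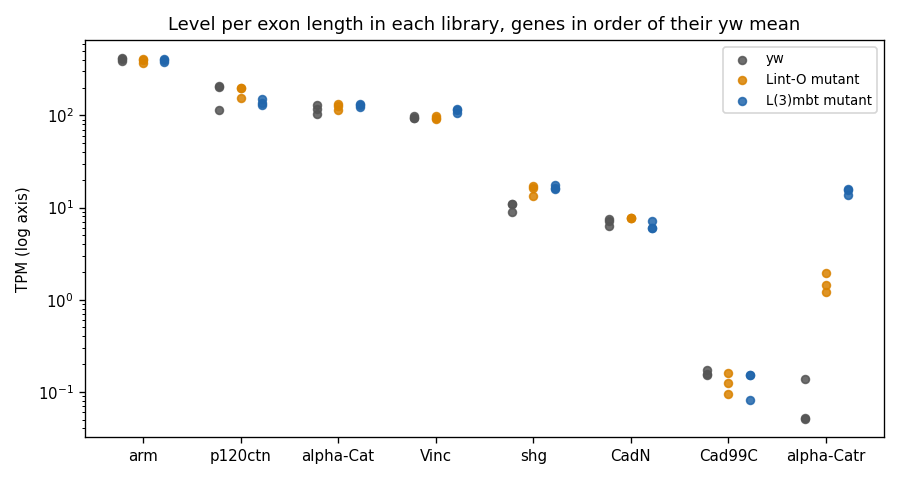
TPM of each gene in each library on a log axis, with genes in order of their yw mean; every point is 1 library. Arm lies near 400 TPM in all groups, while alpha-Catr moves from a mean of 0.0802 in yw to 1.53 in Lint-O mutants and 15.1 in L(3)mbt mutants.

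The surroundings of alpha-Catr were not used to choose it. The nearest upstream gene, CG16787, starts 437 bases away on the opposite strand and was lower in L(3)mbt mutants, with 923 normalized counts in yw, 716 in L(3)mbt mutants and 786 in Lint-O mutants. Its log2 fold change was -0.37 (SE 0.09, Benjamini-Hochberg-adjusted p = 0.00011, DESeq2) in L(3)mbt mutants, and it was not called in Lint-O mutants. The next, thoc5, of the THO complex in mRNA export, was called in neither mutant. On the other side, Fmo-1, a flavin-containing monooxygenase, starts 5114 bases downstream and rose in both mutants. Its normalized counts were 11.9, 14 and 20.6 in yw, 155, 126 and 138 in L(3)mbt mutants, and 91.7, 84.1 and 102 in Lint-O mutants. The log2 fold changes were 3.13 (SE 0.28, adjusted p = 2.9e-27) and 2.54 (SE 0.29, adjusted p = 3.6e-17), by the same DESeq2 test.

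CG13566 overlaps the end of alpha-Catr on the opposite strand and starts 4735 bases from the alpha-Catr start. It had 2, 0 and 3 reads in yw, 19, 20 and 16 in L(3)mbt mutants, and 11, 10 and 10 in Lint-O mutants. From 55 against 5 reads the ratio of normalized totals was 10.4 (95% counting interval 4.21 to 33.4), and from 31 against 5 reads it was 6.89 (2.66 to 22.7). It was called in L(3)mbt mutants (DESeq2, adjusted p = 0.00019 after Benjamini-Hochberg adjustment). The Lint-O call (adjusted p = 0.0049) was lost on leaving out any of the 6 libraries compared (adjusted p 0.013 to 0.036) and with the replicate number as a block, both over all groups (adjusted p = 0.011) and in a fit of yw and Lint-O alone (0.060), and in the latter without the block (0.020).

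A wider window of 10 protein-coding genes on each side, added after the data were seen, spanned 22 kb before to 21 kb after the alpha-Catr start. Orcokinin, a neuropeptide precursor gene 8.77 kb upstream, CG13566 and Fmo-1 were called higher in both mutants (3 of 20, beside 18.1% of all genes in L(3)mbt mutants and 13.4% in Lint-O mutants). Orcokinin had 14, 20.9 and 24.4 normalized counts in yw, 339, 322 and 241 in L(3)mbt mutants, and 151, 157 and 177 in Lint-O mutants. It was the only one of the 20 called higher in the L(3)mbt than in Lint-O mutants, by 0.90 (SE 0.17, Benjamini-Hochberg-adjusted p = 6.0e-06, DESeq2). Alpha-Catr and these 3 genes were the 4 with a yw mean under 20 normalized counts. The 17 others had yw means from 65.9 to 16750. Of the 20, 7 were called lower in L(3)mbt mutants, beside 12.6% of all genes, with log2 values of -0.41 to -0.22. All 7 were among the 17, and no share of all genes matched for level was computed. In Lint-O mutants none of the 20 was called lower by DESeq2 or edgeR, and 5 had an unadjusted p under 0.05 in that direction.

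**Figure D4:**
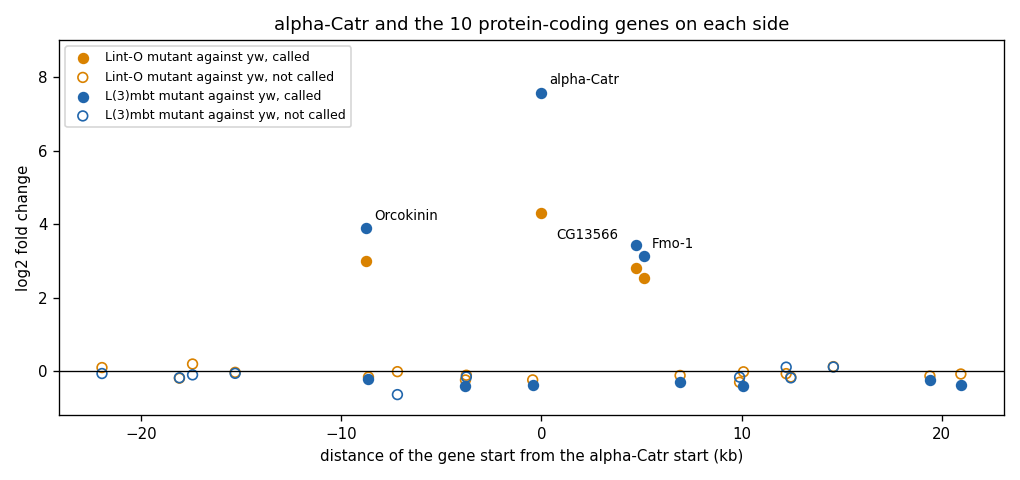
Log2 fold change against yw (vertical axis) of alpha-Catr and the 10 protein-coding genes on each side, by the distance of each gene start from the alpha-Catr start in kb; filled points were called. Orcokinin, CG13566 and Fmo-1 rise with alpha-Catr in both mutants, while the other 17 genes lie between -0.63 and 0.20.

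The 2 nearest protein-coding genes on each side of all 8 genes gave 32 neighbours. Of 25 tested, 7 were called in L(3)mbt mutants (28%, beside 30.7% of all genes) and 9 in Lint-O mutants (36.0%, beside 20.9%). The Lint-O count was 5 without yw replicate 3, 4 without Lint-O replicate 2, and 5 in a fit of yw and Lint-O alone. RIC-3, a chaperone gene of acetylcholine receptors, is the second protein-coding gene downstream of shg, beyond ND-B14.7, and starts 39413 bases from the shg start. It rose from 6.08 normalized counts in yw to 336 in L(3)mbt mutants and 283 in Lint-O mutants. AGO3, a piRNA-binding Argonaute gene, is the second upstream of alpha-Cat, beyond ND-MLRQ, and starts at -216493 bases relative to the alpha-Cat start. AGO3 had 329, 371 and 138 normalized counts in yw. Its means were 853 in L(3)mbt mutants and 1169 in Lint-O mutants, and it was called higher in both.

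The 5 protein-coding genes whose pattern over the 9 libraries was most like that of alpha-Catr, among the 7358 that averaged 50 normalized counts or more, were CG15930, sunn, TwdlG, Pxt and CG42613. Pearson's r of the log2 values was 0.992 to 0.996, and 702 genes had r over 0.9, so the 3 group levels carry most of this likeness. Sunn, a meiotic cohesion gene, had 228, 1762 and 707 normalized counts in yw, L(3)mbt mutants and Lint-O mutants. Pxt, a peroxidase gene, had no read in yw, with means of 396 and 28.7 in the mutants. CG15930 had means of 6.97, 337 and 58.9. By Spearman's rho only CG15930 was among the first 5 again.

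Other adhesion genes and the Wingless genes that share arm were examined as 6 lists of 108 genes, of which 106 were tested against yw. In L(3)mbt mutants 33 were called (31.1%, beside 30.7% of all genes), 22 as higher and 11 as lower. In Lint-O mutants 24 were called (22.6%, beside 20.9%), 18 as higher and 6 as lower. The median log2 fold change was 0.01 and 0.04. Against yw, the lists as a whole were thus called about as often as all genes. Between the mutants, 33 of 104 tested were called (31.7%, beside 14.9% of all genes), 19 as higher and 14 as lower.

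Of 13 other cadherin superfamily genes tested, 4 rose and 1 fell in L(3)mbt mutants, and 3 rose in Lint-O mutants. Their median log2 fold changes were 0.16 and 0.24. Stan, the planar polarity cadherin Flamingo, rose from 427, 341 and 414 normalized counts in yw to 649, 692 and 626 in L(3)mbt mutants and 600, 654 and 624 in Lint-O mutants, with no overlap with yw. The log2 fold changes were 0.73 (SE 0.10, Benjamini-Hochberg-adjusted p = 9.1e-12, DESeq2) and 0.66 (SE 0.10, adjusted p = 1.8e-09). Cad86C rose in L(3)mbt mutants by 0.65 (SE 0.12) and Cad88C by 1.45 (SE 0.35), and neither was called in Lint-O mutants (0.33 and 0.91). Cad96Cb was called in both (0.63 and 0.51), but its Lint-O call was lost without yw replicate 2 or 3 or Lint-O replicate 2 or 3 (log2 0.44 to 0.49) and in the block fit of yw and Lint-O alone (DESeq2, adjusted p = 0.038), but not with the block over all groups. Kug, the Fat-like cadherin that orients the follicular epithelium, was called lower in L(3)mbt mutants (-0.27) and higher in Lint-O mutants (0.24). These calls were lost on leaving out 2 and 4 libraries in turn, with values of -0.23 to -0.20 and 0.19 to 0.26. The L(3)mbt call was also lost with scaling by total counts (-0.21) and the Lint-O call with edgeR (0.24).

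Of 21 partners of the adherens junction, 3 rose in L(3)mbt mutants (Moe, Mer and crb), and 4 rose and Rho1 fell in Lint-O mutants. Crumbs (crb), the apical polarity protein, changed most of those called. It had 311, 274 and 298 normalized counts in yw, 1102, 1198 and 1226 in L(3)mbt mutants, and 818, 853 and 1005 in Lint-O mutants. The log2 fold changes were 2.0 (SE 0.10, Benjamini-Hochberg-adjusted p = 1.6e-85, DESeq2) and 1.60 (SE 0.10, adjusted p = 4.5e-53). RhoGEF2, an activator of the GTPase Rho1, rose only in Lint-O mutants (0.41, SE 0.07), and the mutants differed by -0.50 (SE 0.07, DESeq2 adjusted p = 1.9e-10). Moe, which ties the membrane to actin, rose by 0.26 (SE 0.04) in L(3)mbt mutants and had -0.03 in Lint-O mutants.

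Of 23 integrin adhesion genes, 7 rose and 6 fell in L(3)mbt mutants, and 7 rose and 2 fell in Lint-O mutants. The medians were -0.01 and 0.07. The chains of collagen IV, a basement membrane protein, rose most. Col4a1 had 454, 552 and 515 normalized counts in yw, 2696, 2927 and 2697 in L(3)mbt mutants, and 1113, 1128 and 1395 in Lint-O mutants. Its log2 fold changes were 2.45 (SE 0.09) and 1.26 (SE 0.10), and those of vkg were 1.83 (SE 0.11) and 1.04 (SE 0.12). Scb, an integrin alpha subunit, rose by 1.15 (SE 0.08) and 0.36 (SE 0.08), and wb, a laminin alpha chain, by 1.31 (SE 0.21) in L(3)mbt mutants. By, the fly tensin, rose by 0.59 (SE 0.08) there. Itgbn, an integrin beta subunit, rose by 1.61 (SE 0.28) in L(3)mbt mutants. Its Lint-O value of 0.93 (SE 0.29) lost its call on leaving out 7 of the 9 libraries in turn and was 0.51 (SE 0.30) without Lint-O replicate 2. Its adjusted p was 0.014 with edgeR and, with DESeq2, 0.019 with the block over all groups, 0.030 in a fit of yw and Lint-O alone and 0.12 with both.

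Of 16 septate junction genes only Fas3, a homophilic adhesion protein, was called in L(3)mbt mutants (0.89, SE 0.10). None was called in Lint-O mutants by DESeq2 or edgeR, and 3 had an unadjusted p under 0.05. Fas3 is also a marker of ovarian somatic cells and of the immunoglobulin list. Of 14 immunoglobulin adhesion genes, 4 rose and 2 fell in L(3)mbt mutants, and 3 rose and 1 fell in Lint-O mutants. Tutl, an axon and dendrite guidance protein, rose by 2.96 (SE 0.19) and 1.98 (SE 0.20), and Dscam1, a neuronal recognition protein, by 1.69 (SE 0.10) and 1.13 (SE 0.10). Sns, a nephrin-like protein of myoblast fusion, rose by 2.80 (SE 0.22) and 1.07 (SE 0.23), and the latter call was lost in the block fit of yw and Lint-O alone (DESeq2, adjusted p = 0.027) but kept with the block over all groups. Fas2 fell by 0.89 (SE 0.06) and rst by 1.36 (SE 0.30) in L(3)mbt mutants. In Lint-O mutants their values were -0.16 and -0.90, and neither was called. That of rst was called in 5 of 17 alternatives (-0.91 to -0.90), among them edgeR, TMM factors and a fit of yw and Lint-O alone. The summed level of 7 neuronal markers was 146 to 213 CPM in yw, 229 to 278 in L(3)mbt mutants and 245 to 274 in Lint-O mutants. That rise was the rise of cac, a calcium channel gene, from a mean of 49.4 CPM in yw to 140 in both mutants. Elav had means of 61.4, 51.3 and 56.9 CPM and Syx1A of 71.5, 59.3 and 63.5 in the same order, and the other 4 were under 1 CPM. The part of these markers in the values was not tested.

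Of 22 Wingless signalling genes tested, 4 rose and 2 fell in L(3)mbt mutants, and 1 rose and 2 fell in Lint-O mutants. The ligand gene Wnt2 had 384, 363 and 422 normalized counts in yw, 1245, 1258 and 1145 in L(3)mbt mutants, and 732, 749 and 825 in Lint-O mutants. Its log2 fold changes were 1.63 (SE 0.09) and 0.97 (SE 0.09). Wnt4 rose by 2.41 (SE 0.31) in L(3)mbt mutants. Wnt6 was called lower in Lint-O mutants (-0.57, SE 0.15), but not without yw replicate 3 (-0.55), Lint-O replicate 2 (-0.56) or Lint-O replicate 3 (-0.52), nor in the block fit of yw and Lint-O alone (DESeq2, adjusted p = 0.039), while it was kept with the block over all groups. The receptor gene fz2 fell by 0.31 (SE 0.08) in L(3)mbt mutants. In Lint-O mutants it fell by 0.30 (SE 0.08), with the call lost without yw replicate 1 (-0.25), yw replicate 2 (-0.27) or Lint-O replicate 3 (-0.27). Arm itself, the effector of the pathway, was not called in either mutant.

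**Figure D5:**
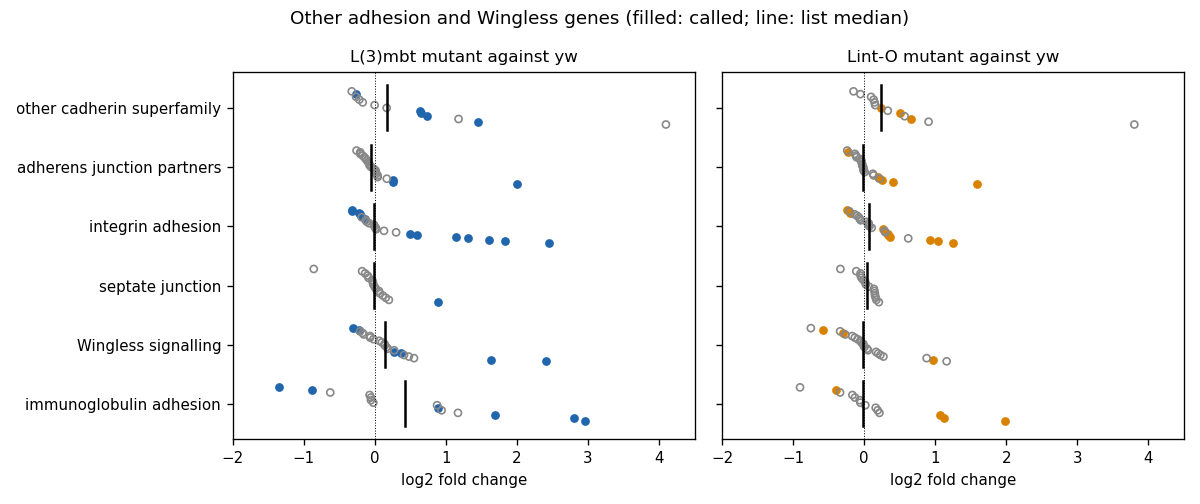
Log2 fold change against yw of each gene tested in the 6 lists, in L(3)mbt mutants (left) and Lint-O mutants (right); filled points were called and black lines are list medians. In both mutants most genes lie near 0, and crb, Col4a1, vkg, Wnt2, sns, tutl and Dscam1 stand to the right.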

How the data were processed

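Per the labels and the study's methods, poly-A-selected RNA was made into libraries with a stranded kit, ribosomal reads were set aside, and HISAT2 and featureCounts were used with dm6; versions are not given in the sources used here. The authors deposited raw whole-number counts per gene, with no normalization. All columns were assigned by name. Ensembl's BDGP6 annotation gave positions, exon lengths and symbols for 17559 of 17611 identifiers.

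DESeq2 1.42.0 (R 4.3.3) was fitted to all 9 libraries with 1 coefficient per group, median-of-ratios size factors, a two-sided Wald test and Benjamini-Hochberg adjustment over all genes, with calls at an adjusted p under 0.01 whatever the fold, as in the study's methods. It was tested on simulated data. TPM and CPM were computed from the counts. Alternatives were edgeR 4.0.16, other factors, filters and samples, and each library left out. Deviations from the group means of same-numbered yw and Lint-O libraries had correlations of 0.11, 0.13 and 0.35 over 7562 genes. These values do not establish a pairing. A block was also fitted for that pair, a choice made after seeing the data.

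The members and lists were chosen with earlier results of these data known. Named genes were the members and, per list, up to 4 genes called in both mutants and up to 2 called in 1, by size of change, plus neighbours and the genes most like alpha-Catr. Genes of other kinds (RIC-3, AGO3, Orcokinin, p120ctn's neighbours, rhea, and tj and flam as further genes low in yw replicate 3) were chosen after their values were seen. Protein and promoter sequences were not analysed here.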

Additional observations from a re-analysis of the deposited data

Results flagged for a closer look

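The rule for this flag required opposite calls against yw in the mutants and a call in their direct comparison. Among the listed genes, 2 met it. The direct difference combines the 2 opposite effects, so its call and its adjusted p are no separate support for them. Kug, a Fat-like cadherin, had 3719, 3130 and 3394 normalized counts in yw, 2700, 3060 and 2762 in L(3)mbt mutants, and 4029, 4132 and 3970 in Lint-O mutants. Its log2 fold changes were -0.27 (SE 0.07) and 0.24 (SE 0.07), and the effects differed by -0.51 (SE 0.07, Benjamini-Hochberg-adjusted p = 3.3e-11, DESeq2). Rhea, the fly talin, which links integrins to actin and binds vinculin, had 4958, 4846 and 4609 in yw, 4076, 4135 and 4132 in L(3)mbt mutants, and 5108, 5888 and 6296 in Lint-O mutants. Its log2 fold changes were -0.22 (SE 0.07) and 0.26 (SE 0.07), and the effects differed by -0.49 (SE 0.07, DESeq2, adjusted p = 2.1e-10).

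The calls against yw were lost in several alternatives. For kug, the L(3)mbt call was lost without yw replicate 1 (-0.20) or L(3)mbt replicate 1 (-0.23) and with scaling by total counts (-0.21), and the Lint-O call without yw replicate 2 (0.19) or any Lint-O library (0.23 to 0.26) and with edgeR (0.24). For rhea, the L(3)mbt call was lost without yw replicate 1 (-0.20), yw replicate 2 (-0.22) or any L(3)mbt library (-0.23 to -0.21) and with scaling by total counts (-0.17), and the Lint-O call without Lint-O replicate 2 (0.25) or 3 (0.20). Their difference between the mutants kept its call in all 16 alternatives. Since the rule picked opposite effects, which add up in that difference, this is no sign of stability.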

How the results depend on the processing

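The alpha-Catr, shg and Vinc calls of L(3)mbt mutants, the alpha-Catr and shg calls of Lint-O mutants and the alpha-Catr and Vinc calls between the mutants kept their direction in all alternatives, and all but that of Vinc against yw were also kept as calls. This is no sign of stability, since the genes were chosen on these values. Leaving out each library in turn gave alpha-Catr log2 values of 7.30 to 8.11 in L(3)mbt mutants, 4.02 to 4.83 in Lint-O mutants and 3.15 to 3.52 between them; the 10 yw reads limit the first 2. With a minimum log2 fold change of 1, the calls over all genes were 1156, 794 and 279 (3280, 2180 and 1358 without it), those in the lists 13, 6 and 3, and those among the neighbours 5 in Lint-O mutants and 0 between the mutants. The neighbours called in Lint-O mutants numbered 5 in a fit of 2 groups and 4 to 9 on leaving out a library, and between the mutants 2 and 1 to 2. All genes called between the mutants numbered 882 to 1531 on leaving out a library, with 882 without L(3)mbt replicate 1 and 886 without Lint-O replicate 2. For these changes the cause was not tested. Scaling by total counts raised the share of higher calls from 59.0% to 71.2% in L(3)mbt mutants and from 64.0% to 77.9% in Lint-O mutants. No result reversed.

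With the replicate number as a block over all groups, 3143, 2098 and 1257 genes were called, and in a block fit of yw and Lint-O alone 1617. Of the Lint-O calls of named genes, those of CG13566 and Itgbn were lost in both block fits and those of Cad96Cb, Wnt6 and sns only in the second. Of the L(3)mbt against Lint-O calls of named genes, that of wb was lost with the block. Over all groups the numbers do not pair the samples: same-numbered libraries had correlations of -0.23 to 0.35, and 9 of 18 correlated best with their own number. The planned alignment of the members' proteins was not run.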
